A study of Homo sapiens with 12 samples.

Results

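The peaks described here are those that FoxK1 chromatin immunoprecipitation gave on the pieces of the human assembly that have no fixed place on a chromosome. A peak was taken as a member when its hg19 sequence name began with chrUn_ (unplaced) or carried _random (assigned to a chromosome without a position) or _hap (an alternate haplotype). This rule used the sequence name alone and no measured value. It gave 373 of the 223205 peaks in the 6 deposited lists, or 0.167%. They lay on 22 contigs, of which 14 were unplaced (191 peaks) and 8 were randomly placed (182 peaks). There were 0 peaks on alternate haplotypes, so the set consists of unplaced and randomly placed contigs. One contig, chrUn_gl000220, is set apart because it is generally known to carry ribosomal RNA genes. This is background, and no hg19 annotation was used here to place those genes against the peaks. It held 47 peaks, and the other 21 contigs held 326.

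The cells were HepG2, an established human hepatocellular carcinoma line. All groups spent 16 h in serum-free medium with albumin before the experiment and were fixed with 1% formaldehyde for 10 min. The insulin group received 100 nM insulin for 20 min and the untreated group received none. Each group has 3 FoxK1 libraries with 1 peak list each, and the input libraries were not analysed here. The labels do not state whether the libraries of a group are separate cultures. The p-values therefore describe the spread between these libraries and nothing wider.

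FoxK1 is a forkhead transcription factor, a protein that binds DNA through a winged-helix domain, and its entry into the nucleus is known to respond to insulin. Unplaced and randomly placed contigs are rich in repeats and in segments that also occur elsewhere in the genome, which is one reason why they could not be positioned. Reads from many copies of such a segment can collect on the few copies that an assembly holds. The ribosomal RNA genes are the best known case: a long precursor is transcribed by RNA polymerase I in the nucleolus from tandem arrays on the short arms of several chromosomes and is cut into the 18S, 5.8S and 28S RNAs. RefSeq lists RNA45SN5, RNA18SN5, RNA5-8SN5 and RNA28SN5 on an unplaced sequence of its assembly GRCh38.p14. That is another build than the one of the peaks, so no position was carried over.

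Contig peaks numbered 43, 40 and 146 in insulin replicates 1, 2 and 3, and 46, 35 and 63 in untreated replicates 1, 2 and 3. Insulin replicate 3 stood far above the other 5 lists, and the remaining values of both groups overlapped. The mean was 76.3 ± 60.4 peaks after insulin and 48.0 ± 14.1 without it (SD, n = 3 each), a difference of 28.3 that was smaller than the spread within the insulin group (two-sided exact permutation p = 0.7, with 0.1 the lowest p that 3 libraries against 3 can give). Without insulin replicate 3 the difference was -6.5, the opposite direction, and among peaks with −log10 q of at least 5 it was 8 peaks.

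The lists themselves held 48208, 45057 and 27503 peaks after insulin and 44687, 31668 and 26082 without it. Contig peaks were therefore 0.0892%, 0.0888% and 0.531% of the insulin lists, against 0.103%, 0.111% and 0.242% of the untreated lists. In both groups the replicate 3 list was the shortest and had the highest share. The mean share was 0.236% ± 0.255 after insulin and 0.152% ± 0.0779 without it (SD, n = 3 each, two-sided exact permutation p = 1). The difference of 0.0846 percentage points changed sign without insulin replicate 3, to -0.0627. It was 0.0169 among peaks with −log10 q of at least 5, and -0.0177 without both replicate 3 libraries, a setting chosen after seeing the data. Insulin replicate 3 held 39.1% of the contig peaks, against 12.3% of all peaks. Together both replicate 3 lists held 56.0% of the contig peaks, against 24.0% of all peaks.

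The contigs fell into a few patterns by library. Peaks were called in all 6 libraries on 8 contigs, which together held 276 of the peaks. The richest was chr7_gl000195_random, with 10, 12 and 25 peaks in insulin replicates 1, 2 and 3 and 11, 8 and 15 in untreated replicates 1, 2 and 3. On chrUn_gl000214 the insulin lists held 5, 4 and 21 peaks and the untreated lists 6, 3 and 5. For these contigs, insulin replicate 3 gave the highest number and the other 5 lists overlapped. The same held for chr17_gl000205_random, with 4, 4 and 14 peaks after insulin and 4, 4 and 9 without it. On chrUn_gl000219 there were 7, 5 and 14 after insulin and 3, 3 and 5 without it. Insulin replicate 3 was again highest there, and the groups met only at 5 peaks. The remaining contigs of this kind outside chrUn_gl000220 were chrUn_gl000218, chrUn_gl000241 and chr4_gl000194_random, with 1 to 5 peaks in each list.

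A further 10 contigs had peaks in replicate 3 libraries alone, and 7 of these had them in both replicate 3 libraries. These 10 contigs held 57 peaks. Their folds were low, from 1.83 to 4.60 with a median of 3.28. The fold is the authors' value for a peak, its fragment pileup at the summit over the background that the peak caller estimated there, and it serves here only to describe and rank peaks within a list. On chr4_gl000193_random, the largest of these contigs by peak number, insulin replicate 3 had 12 peaks and untreated replicate 3 had 7. Insulin replicate 3 had 8 peaks on chrUn_gl000224, 6 on chrUn_gl000212 and 5 on chrUn_gl000232, where untreated replicate 3 had 2, 4 and 1. Contigs chrUn_gl000234 and chrUn_gl000237 each had 2 peaks in insulin replicate 3 and 1 in untreated replicate 3, and chrUn_gl000231 had 1 in each. A single library had each of the remaining 3, chrUn_gl000225 (2 peaks) and chr19_gl000208_random (1 peak) in insulin replicate 3 and chrUn_gl000235 (1 peak) in untreated replicate 3. These were also the contigs found in one treatment alone.

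One contig went the other way. On chr9_gl000199_random the insulin lists held 0, 2 and 0 peaks and the untreated lists 12, 6 and 0, so its 20 peaks came from 3 libraries and none from either replicate 3. Untreated replicates 1 and 2 stood high, while untreated replicate 3 was at 0 like insulin replicates 1 and 3. The folds of these peaks ran from 2.17 to 7.49, with a median of 3.96. The 20 peaks lay in 13 regions, and insulin replicate 2 had a peak in 2 of those. Of the 3 contigs left, chr9_gl000198_random held 1, 0 and 9 peaks in the insulin lists, against 0, 0 and 2 in the untreated lists. On chrUn_gl000226 the insulin lists held 0, 1 and 1 peaks and the untreated lists 2, 1 and 0. On chr1_gl000192_random these numbers were 1, 1 and 0 after insulin and 0, 0 and 1 without it.

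**Figure D1:**
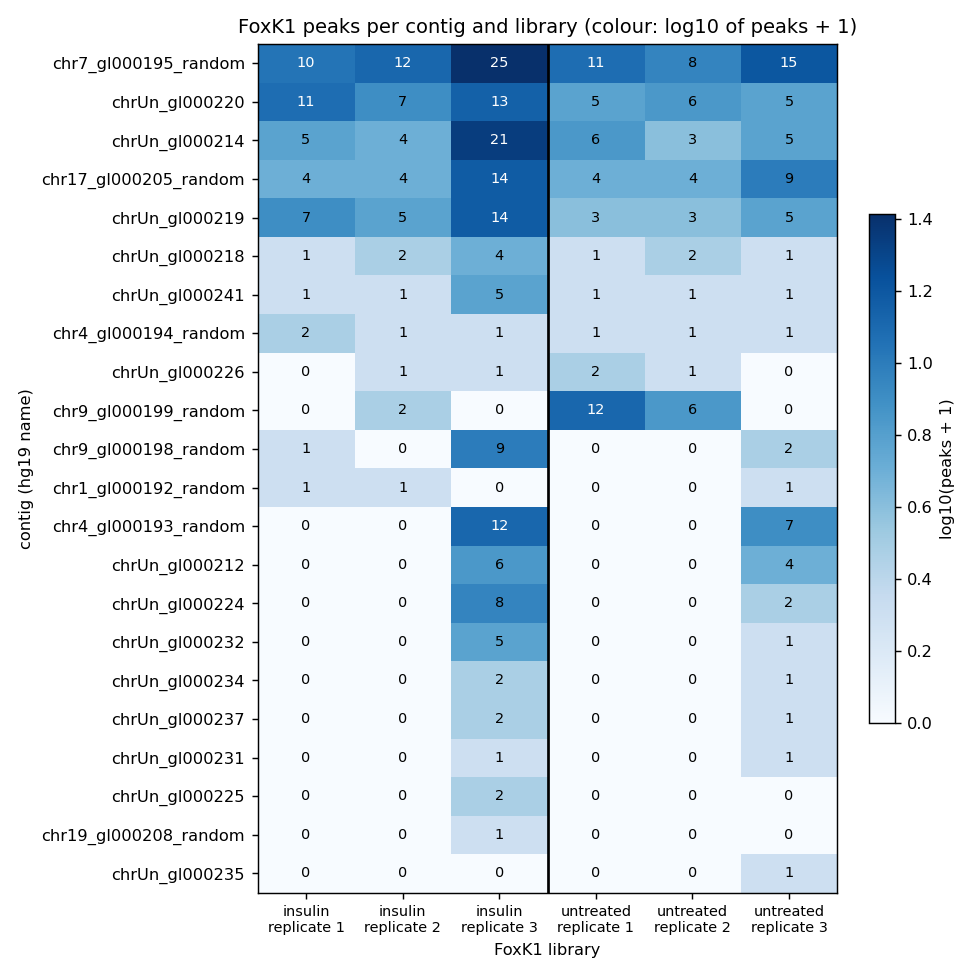
Number of FoxK1 peaks on each of the 22 contigs (vertical axis) in each of the 6 libraries (horizontal axis, insulin left of the line), with colour giving log10 of peaks + 1. The lower rows hold the 10 contigs with peaks in replicate 3 libraries alone, and the row of chr9_gl000199_random shows 12 and 6 peaks in untreated replicates 1 and 2.

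Peaks of all 6 lists that shared at least 1 bp were merged into 68127 regions, of which 198 lay on contigs. Of the contig regions, 17 (8.59%) were called in all 6 libraries, against 23.3% of all regions. A single library called 136 (68.7%), against 34.3% of all regions. The shared percentage of contig regions stood below that of all regions and the single-library percentage above it, as a description without a test. The numbers called in 1, 2, 3, 4, 5 and 6 libraries were 136, 22, 13, 7, 3 and 17.

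Most of the unshared contig regions belonged to the replicate 3 libraries. A total of 135 contig regions (68.2%) were called in a replicate 3 library and in no replicate 1 or 2 library, against 9.28% of all regions. Insulin replicate 3 accounted for 95 of them by itself and untreated replicate 3 for 26, and 14 were in both. The opposite set, regions of replicates 1 and 2 with no replicate 3 call, held 27 contig regions (13.6%), against 50.8% of all regions. The peaks in regions of replicate 3 alone were weak in their lists, where 100 is the strongest percentile of the authors' −log10 q. They made up 109 of the 146 contig peaks of insulin replicate 3, with a median fold of 3.08 and a median percentile of 18.1. In untreated replicate 3 they were 40 of 63, with a median fold of 2.88 and a median percentile of 17.0. In these lists 29.7% (insulin replicate 3) and 33.2% (untreated replicate 3) of all peaks lay at the lowest background of the list, and in replicates 1 and 2 this share did not exceed 1.29%. Among contig peaks the share was 16.4% in insulin replicate 3 and 14.3% in untreated replicate 3, below that of all peaks. In replicates 1 and 2 it was 0% and 5.0% of contig peaks after insulin and 6.52% and 8.57% without it, above that of all peaks except in insulin replicate 1. Why the replicate 3 lists differ was not tested.

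With both replicate 3 libraries left out, 65 contig regions remained. Of these, 22 (33.8%) were called in all 4 remaining libraries, against 40.6% of all regions. A single library called 19 (29.2%), against 30.5% of all regions. Both percentages were closer to those of all regions than with replicate 3 included.

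The place of a peak in its list is given as a percentile of the authors' −log10 q, where 100 is the strongest peak, because q depends on the depth of a library and the depths are unknown. The median contig peak stood at percentile 56.7, 57.1 and 22.8 in insulin replicates 1, 2 and 3, and at 48.3, 51.8 and 27.9 in untreated replicates 1, 2 and 3. Both replicate 3 lists were low, and the other 4 lay near the middle of their lists. Between treatments the medians averaged 45.6 ± 19.7 after insulin and 42.7 ± 12.9 without it (SD, n = 3 each, two-sided exact permutation p = 0.7). The difference of 2.87 reversed to -2.72 without insulin replicate 1, -2.91 without insulin replicate 2 and -4.50 without untreated replicate 3, and was 14.2 without insulin replicate 3.

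Against chromosome peaks of the same list, the median contig percentile was lower in 3 lists and higher in 3. The mean difference over the 6 lists was -5.92 ± 15.0 (SD, two-sided exact sign-flip p = 0.469). Its direction depended on the replicate 3 libraries, since it was 3.49 without both. With −log10 q of at least 5 it was -0.17 and with lists of equal length -0.651. Of the contig peaks, 37.2%, 35.0% and 11.0% lay at or above the 75th percentile in the insulin lists, against 34.8%, 28.6% and 12.7% in the untreated lists. Among the 1000 strongest peaks of a list, 4, 3 and 6 were contig peaks after insulin and 5, 4 and 4 without it.

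Contig peaks had a lower fold than chromosome peaks in every list. The median fold was 5.74, 4.53 and 3.29 at contig peaks of insulin replicates 1, 2 and 3, against 5.95, 5.58 and 4.80 at chromosome peaks. In untreated replicates 1, 2 and 3 it was 3.99, 3.84 and 3.06 at contig peaks, against 4.65, 4.18 and 4.21 at chromosome peaks. The mean difference was -0.822 ± 0.503 (SD over 6 lists, two-sided exact sign-flip p = 0.0312, which is the lowest that 6 lists allow). Adjusted by the Benjamini-Hochberg method over the 11 tests made here, this p is 0.115, above 0.05, so the difference did not pass the correction although it had one direction in 6 of 6 lists. None of the 11 tests had an adjusted p under 0.05, and none could have had one. Even with every test at the lowest p its libraries allow, the adjusted values stay above 0.05. The correction therefore cannot separate these results. The fold difference was -0.566 without both replicate 3 libraries (two-sided exact sign-flip p = 0.125, which is the lowest for 4 lists).

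The lower fold was also seen among peaks of like rank. In each list the chromosome peaks were divided into bins of 5 percentiles, and 289 of the 373 contig peaks (77.5%) had a fold below the median chromosome peak of their bin. This count was 36 of 43, 34 of 40 and 104 of 146 in the insulin lists, against 36 of 46, 27 of 35 and 52 of 63 in the untreated lists. It was 47 of 47 on chrUn_gl000220 and 242 of 326 (74.2%) on the other contigs. The bins were chosen after seeing the data, and the counts have no test.

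**Figure D2:**
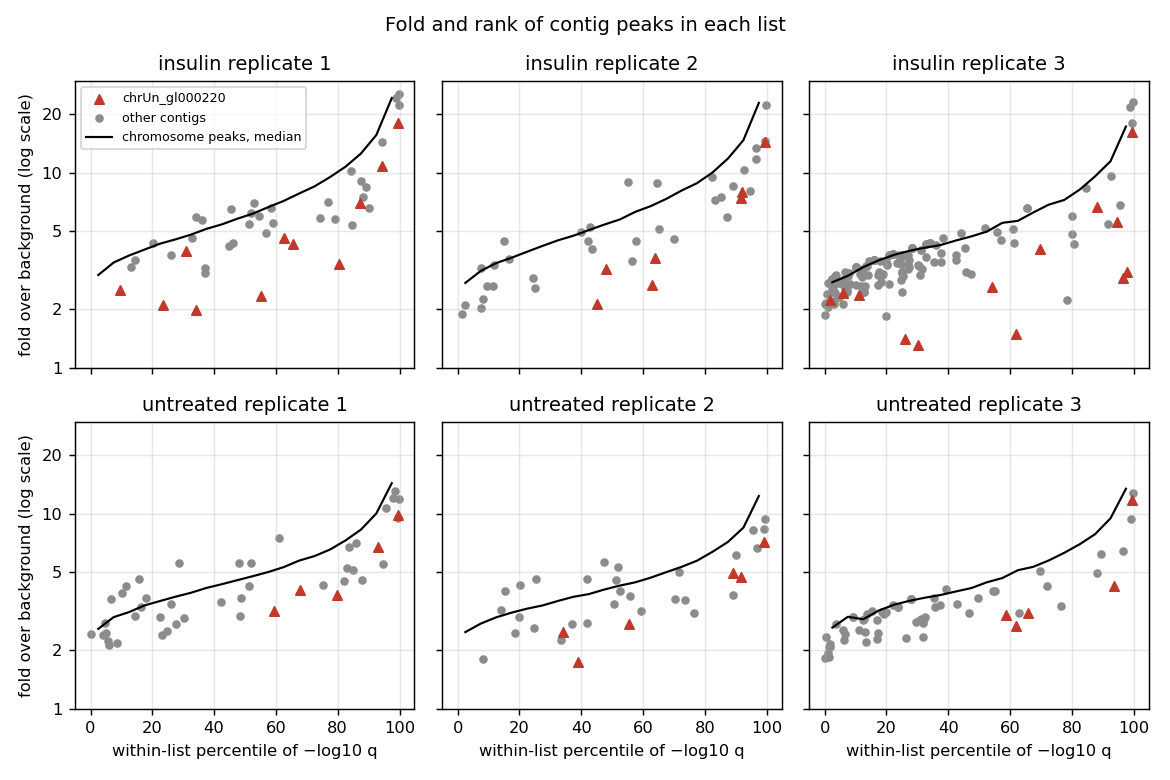
Fold over background (log scale) of every contig peak against its within-list percentile of −log10 q, in 1 panel per library, with chrUn_gl000220 as red triangles, the other contigs as grey points and the median chromosome peak per bin of 5 percentiles as a black line. All 47 triangles lie below the line, as do 242 of the 326 grey points, and the grey points of both replicate 3 lists crowd at low percentiles.

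The number of fragments at a summit and the background expected there were derived from the deposited fold and p of each peak, under the peak caller's definition of the fold and a Poisson model of the p. The median derived background of contig peaks was 9.20, 15.7 and 4.86 fragments in insulin replicates 1, 2 and 3, against 3.75, 6.04 and 3.23 at chromosome peaks. In untreated replicates 1, 2 and 3 it was 15.2, 17.3 and 8.31 at contig peaks, against 8.49, 7.70 and 3.96 at chromosome peaks. The background was thus higher at contig peaks in 6 of 6 lists, by 2.46, 2.61 and 1.505 times after insulin and 1.78, 2.25 and 2.10 times without it. The mean log2 ratio was 1.06 ± 0.30 (SD over 6 lists, two-sided exact sign-flip p = 0.0312, again the lowest for 6 lists, and 0.115 adjusted over the 11 tests). It was 0.85 without chrUn_gl000220 and 1.17 without both replicate 3 libraries.

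Fragments at the summit were also more numerous at contig peaks in 5 of the 6 lists. The median was 56, 71.5 and 18 fragments at contig peaks of the insulin lists, against 27, 38 and 21 at chromosome peaks. In the untreated lists it was 49, 55 and 24 at contig peaks, against 43, 35 and 22 at chromosome peaks. Insulin replicate 3 was the exception, being lower at contig peaks. Per peak, 278 of 373 contig peaks (74.5%) had a background above the median chromosome peak of their list. This held for 47 of 47 on chrUn_gl000220 and for 231 of 326 (70.9%) on the other contigs. Because the background is derived from the fold and p, a lower fold at like rank means a higher derived background. The higher background and the lower fold at like rank are therefore not separate results.

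The contigs differed in their derived background, and so did the lists that called them. At the 20 peaks of chr9_gl000199_random the background was 0.514 times the median chromosome peak of the same list (median, range 0.240 to 2.21), so most of its peaks stood on a background below that of chromosome peaks. At the 57 peaks on contigs of replicate 3 alone the median ratio was 0.984. The lowest ratio outside chrUn_gl000220 was 0.822 in insulin replicate 3 and 0.855 in untreated replicate 3. It was 0.353, 0.240 and 0.292 in insulin replicate 2 and untreated replicates 1 and 2, which gave the chr9_gl000199_random peaks. Contig and list can therefore not be told apart in this contrast. A peak on chrUn_gl000224, at chrUn_gl000224:3519-4591 in insulin replicate 3, had 24.7 times the median, the highest ratio outside chrUn_gl000220, with a fold of 2.22.

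**Figure D3:**
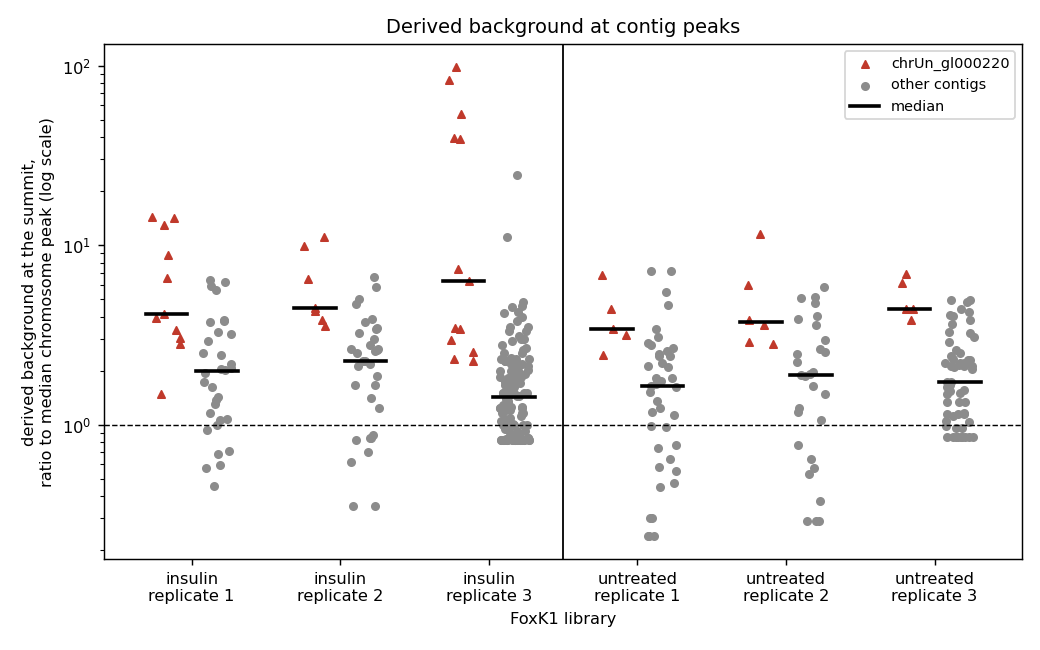
Derived background at the summit of each contig peak as a ratio to the median chromosome peak of the same list (log scale), by library, with chrUn_gl000220 (red triangles) left of the other contigs (grey points), bars at the medians and a dashed line at 1. The medians of chrUn_gl000220 lie at 4.11, 4.48 and 6.33 in the insulin lists, against 3.39, 3.73 and 4.41 in the untreated lists, above the other contigs in every list.

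The median contig peak was 442, 563.5 and 457.5 bp wide in the insulin lists, against 431, 565 and 474 bp for chromosome peaks. In the untreated lists it was 482, 537 and 475 bp wide, against 527, 528 and 478 bp for chromosome peaks. The mean difference of -7.67 ± 20.8 bp (SD over 6 lists) was smaller than its spread (two-sided exact sign-flip p = 0.5). Its direction was not stable. It was 156 bp among peaks with −log10 q of at least 5. In regions of all 6 libraries it was 297 bp, and in regions that a replicate 1 or 2 library has it was 100.2 bp, both settings chosen after seeing the data.

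In the 17 contig regions called in all 6 libraries, the median contig peak stood at percentile 87.4, 90.4 and 86.4 in insulin replicates 1, 2 and 3, against 79.3, 80.1 and 67.5 for chromosome peaks in regions called in all 6. In untreated replicates 1, 2 and 3 it stood at 86.4, 82.8 and 72.1, against 78.4, 70.3 and 66.5 for such chromosome peaks. Peaks of regions found in every list thus stood high on both contigs and chromosomes, and the contig median was the higher one in each list. The mean difference was 10.6 percentiles, in a setting chosen after seeing the data. The mean percentile of a contig region over the 6 lists ranged from 51.5 to 99.8, and single lists went as low as 26.3. Their summits fell close together: the summits of the 6 libraries spanned a median of 53 bp (range 12 to 888 bp) and stayed within 100 bp in 14 of 17. In the 15870 chromosome regions called in all 6 libraries the span had a median of 94 bp, and 53.3% stayed within 100 bp. These counts have no test, and folds of different lists are given as descriptions only. Chromosome peaks in regions called in all 6 libraries had median folds of 9.51, 9.18 and 6.01 in the insulin lists. In the untreated lists these medians were 6.24, 5.02 and 5.07. Contig peaks in such regions had median folds of 7.27, 8.01 and 6.30 in the insulin lists, against 5.41, 4.67 and 4.25 in the untreated lists. At each replicate number the insulin median was the higher one on contigs and on chromosomes. The groups overlapped on chromosomes (6.01 in insulin replicate 3, 6.24 in untreated replicate 1) but not on contigs. Each fold belongs to its own list, so the folds listed below cannot show whether binding changed.

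The strongest was chr7_gl000195_random:29841-33608, with a mean percentile of 99.8. Its fold was 25.4, 22.2 and 23.1 in insulin replicates 1, 2 and 3 and 11.9, 9.38 and 12.7 in untreated replicates 1, 2 and 3, and its summits spanned 35 bp. It held the contig peak with the highest fold in 5 lists. In untreated replicate 1 the highest fold was instead 13.0, in a second region of the same contig, chr7_gl000195_random:49951-51484, which had folds of 7.53, 11.8 and 5.48 in the insulin lists, against 13.0, 6.68 and 6.44 in the untreated lists. This second region ranked at percentile 88.2, 96.6 and 91.5 after insulin and 98.6, 97.0 and 96.7 without it. The untreated lists stood above the insulin lists only narrowly, the closest values being 96.69 (untreated replicate 3) and 96.61 (insulin replicate 2). How many of all regions separate by treatment in this way was not counted. Percentiles of lists of different lengths cannot show whether binding changed, and no test was made.

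Next came chr17_gl000205_random:83961-90646, the widest of the shared regions at 6686 bp, with a mean percentile of 99.5. Its strongest peaks had folds of 22.2, 14.6 and 18.1 in the insulin lists, against 9.56, 8.34 and 9.42 in the untreated lists, with summits within 47 bp. On chrUn_gl000219, region 97921 to 100278 had folds of 24.0, 13.4 and 21.6 after insulin and 12.02, 8.21 and 4.96 without it, and the narrowest summit span of all, 12 bp. These strong regions carried many fragments. At the first region the summit held 632, 806 and 283 fragments in the insulin lists, against 733, 432 and 253 in the untreated lists, and the background there was 23.9, 35.4 and 11.3 fragments after insulin and 60.6, 45.2 and 19.0 without it.

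Of the other shared regions outside chrUn_gl000220, chrUn_gl000214:58789-59533 (mean percentile 92.4) had folds of 14.4, 10.3 and 9.67 in the insulin lists, against 10.7, 6.15 and 6.22 in the untreated lists. Region chr7_gl000195_random:73966-75555 (mean percentile 90.0) had 6.60, 8.02 and 6.86 after insulin and 5.53, 3.84 and 3.36 without it. Region chrUn_gl000219:41500-42937 (81.2) had 9.10, 8.59 and 6.03 after insulin and 5.12, 3.59 and 4.25 without it. All 3 kept their summits within 64 bp.

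Region chr17_gl000205_random:33176-34692 (mean percentile 79.4) had folds of 10.2, 9.47 and 8.38 in the insulin lists, against 6.77, 5.01 and 5.06 in the untreated lists, and its summits spanned 570 bp. The widest span, 888 bp, was at chr7_gl000195_random:85262-87288 (70.5), with folds of 5.77, 7.52 and 4.83 after insulin and 4.51, 2.24 and 3.08 without it. In these regions the libraries placed the strongest point of the peak at different positions. The last of the 12 were chr7_gl000195_random:137278-138606 (67.5), chr7_gl000195_random:11793-12418 (54.1) and chrUn_gl000241:36614-37384 (51.5), with folds between 2.30 and 8.46. With 6 of the 17, chr7_gl000195_random held more shared regions than any other contig, ahead of chrUn_gl000220 with 5.

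**Figure D4:**
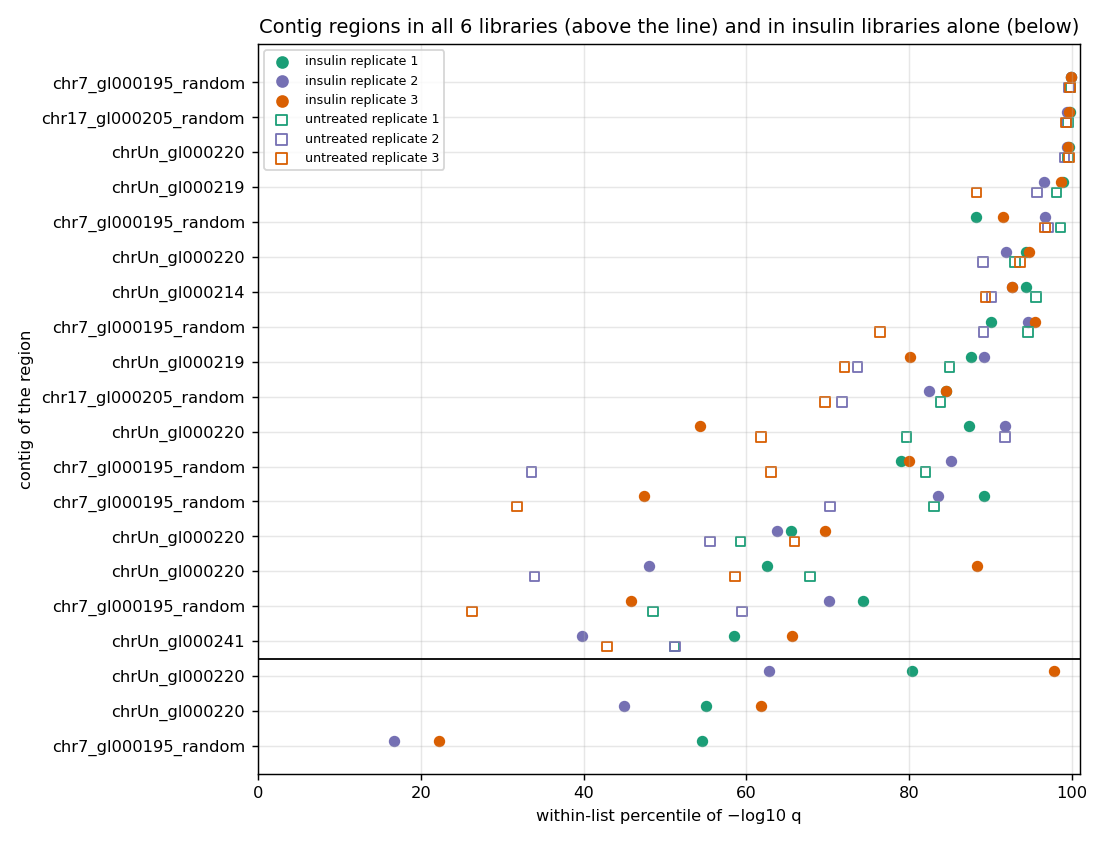
Within-list percentile of −log10 q in each library (insulin as filled circles, untreated as open squares) for the 17 contig regions called in all 6 libraries, ordered by mean percentile above the line, and for the 3 called in insulin libraries alone below it. The top 3 rows lie above percentile 99 in all 6 lists, and the spread between libraries is wider in the rows below them.

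The contig with ribosomal RNA genes, chrUn_gl000220, held 11, 7 and 13 peaks in insulin replicates 1, 2 and 3 and 5, 6 and 5 in untreated replicates 1, 2 and 3. Every insulin list had more than any untreated list, and these counts did not overlap. As a share of the list the groups did overlap. Insulin replicate 2 had 7 of 45057 peaks there, a lower share than the 5 of 26082 in untreated replicate 3. The mean was 10.3 ± 3.06 peaks after insulin and 5.33 ± 0.577 without it (SD, n = 3 each), a difference of 5 with a two-sided exact permutation p = 0.1, the smallest that 3 against 3 allows, and 0.22 adjusted over the 11 tests. With the shortest list's length applied to all lists the difference was 3.33, and it was 3.5 without both replicate 3 libraries.

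In base pairs, peaks covered 6017, 6212 and 11152 bp of chrUn_gl000220 in the insulin lists, against 3825, 5180 and 5389 bp in the untreated lists. The groups again did not overlap, with insulin replicate 3 far above the rest. The mean was 7794 ± 2910 bp after insulin and 4798 ± 849 bp without it (SD, n = 3 each, two-sided exact permutation p = 0.1, the smallest possible, and 0.22 adjusted over the 11 tests). Insulin replicate 3 carried much of this difference of 2996 bp, which was 1316.5 bp without it and 1612 bp without both replicate 3 libraries. With lists of equal length it was 2408 bp and the groups no longer separated fully (two-sided exact permutation p = 0.3).

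Within each list the median peak on chrUn_gl000220 ranked above the median peak of the other contigs. Its percentile was 62.5, 63.8 and 61.8 in the insulin lists, against 55.7, 55.2 and 22.2 on the other contigs. In the untreated lists it was 79.7, 72.3 and 65.9, against 30.2, 51.2 and 25.0 on the other contigs. The mean difference of 27.7 ± 18.1 (SD over 6 lists) was positive in 6 of 6 lists (two-sided exact sign-flip p = 0.0312, again the lowest for 6 lists, and 0.115 adjusted over the 11 tests). It was 21.5 without both replicate 3 libraries. With lists of equal length it was 11.8 (two-sided exact sign-flip p = 0.344).

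The fold did not follow this order. The median fold on chrUn_gl000220 was 3.98, 3.67 and 2.59 in the insulin lists, against 5.88, 4.59 and 3.31 on the other contigs. In the untreated lists it was 4.05, 3.72 and 3.09, against 3.93, 3.84 and 3.01 on the other contigs. The difference was negative in 4 of 6 lists, with a mean of -0.577 ± 0.773 (SD over 6 lists, two-sided exact sign-flip p = 0.156). It was -1.31 among peaks with −log10 q of at least 5 (two-sided exact sign-flip p = 0.0312) and -1.42 with lists of equal length (two-sided exact sign-flip p = 0.0625). Fragments at the summit were many, the median being 106, 161 and 119 in the insulin lists, against 147, 129 and 66 in the untreated lists, and the background was high as well.

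The 47 peaks merged into 15 regions, of which 5 were present in every library and 7 in 1 library. The strongest region, chrUn_gl000220:6707-8632, had folds of 18.0, 14.4 and 16.1 in the insulin lists, against 9.83, 7.16 and 11.8 in the untreated lists, and stood above percentile 99 in each. Region 96699 to 97983 had folds of 10.8, 7.99 and 5.59 after insulin and 6.73, 4.95 and 4.27 without it, with a mean percentile of 92.8. Region 92735 to 94177 had 7.01, 7.44 and 2.59 after insulin and 3.84, 4.73 and 2.65 without it. At this last region both replicate 3 lists were low. The weaker pair were region 52125 to 54747 (mean percentile 63.3, folds between 2.71 and 4.33) and region 16363 to 17799 (mean percentile 59.9, folds between 2.48 and 6.66).

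On chrUn_gl000220, 2 regions had a peak in 3 of 3 insulin lists and in 0 of 3 untreated lists. The whole contig set had 3 such regions (1.52%), against 0.376% of all regions, and 0 in the reverse direction, against 0.0352% of all regions. No single region can go below an exact permutation p of 0.1. Region 117695 to 118394 had folds of 3.42, 2.67 and 3.10 in insulin replicates 1, 2 and 3, at percentiles 80.3, 62.8 and 97.7. Region 134103 to 134586 had folds of 2.33, 2.12 and 1.49, at percentiles 55.1, 45.0 and 61.8. The third, chr7_gl000195_random:142831-143218, had folds of 5.97, 3.60 and 3.83, at percentiles 54.6, 16.7 and 22.2. The first 2 regions ranked in the middle or upper part of their lists with folds of at most 3.42.

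The background under these regions was unlike. On chrUn_gl000220 it was 48.5, 59.7 and 127 fragments in insulin replicates 1, 2 and 3 at the first of them and 53.4, 67.4 and 270 at the second. At the third region, on chr7_gl000195_random, it was 4.36, 5.10 and 2.66 fragments, close to the chromosome medians of the same lists (3.75, 6.04 and 3.23). Leaving out each library in turn gave 3 or 4 insulin-only contig regions, and 0 untreated-only ones except without untreated replicate 3, where there were 3. Without both replicate 3 libraries there were 6 insulin-only and 3 untreated-only contig regions. With fewer libraries the rule is met more easily.

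The other regions of chrUn_gl000220 were called in 1 to 3 libraries. Insulin replicate 1 alone had 83034 to 83308 (fold 3.98) and 125273 to 125586 (fold 2.09). Insulin replicate 3 alone had 18181 to 18645 (fold 2.37), 46192 to 46480 (fold 2.41), 49823 to 50244 (fold 2.22), 118796 to 119368 (fold 2.87) and 144106 to 144379 (fold 1.40). Region 135052 to 135599 was called in insulin replicate 1 (fold 1.98), insulin replicate 3 (fold 1.30) and untreated replicate 2 (fold 1.75). Outside the 5 shared regions, then, 15 calls came from insulin lists and 1 from an untreated list. Insulin replicate 3 gave more of these 15 than either other insulin list. The insulin lists were also longer at each replicate number. The same split over all regions was not counted, so these calls have no baseline and cannot show a difference between treatments.

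Along the contig the peaks fell into a pair of stretches that differed in background. The contig was divided at 110 kb, a position chosen after seeing the values. Before it lay 35 peaks, 20 from insulin lists and 15 from untreated lists, with folds of 2.22 to 18.0 and a background 1.48 to 7.33 times the median chromosome peak. Beyond it lay 12 peaks, 11 from insulin lists and 1 from an untreated list, with folds of 1.30 to 3.42 and a background 8.81 to 97.7 times that median. These peak numbers are sums over the 3 lists of a treatment, and the insulin lists were the longer ones at each replicate number. Over all sequences the insulin lists held 48208, 45057 and 27503 peaks, against 44687, 31668 and 26082 in the untreated lists. The 11 insulin peaks of the second stretch were 4, 2 and 5 in insulin replicates 1, 2 and 3. Such summed numbers cannot show a difference between treatments.

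Insulin replicate 3 stood out in the second stretch. Its 5 peaks there had a background of 38.8 to 97.7 times the median chromosome peak and 242 to 412 fragments at the summit, and they were the 5 highest backgrounds of its entire list. The 7 peaks of the other libraries had 8.81 to 14.3 times the median. In insulin replicate 1 the peaks of this stretch ranked 5th to 8th by background in the whole list, and in insulin replicate 2 they ranked 3rd and 4th. The untreated replicate 2 peak ranked 5th. The part of this high background in the insulin calls of the stretch was not tested.

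**Figure D5:**
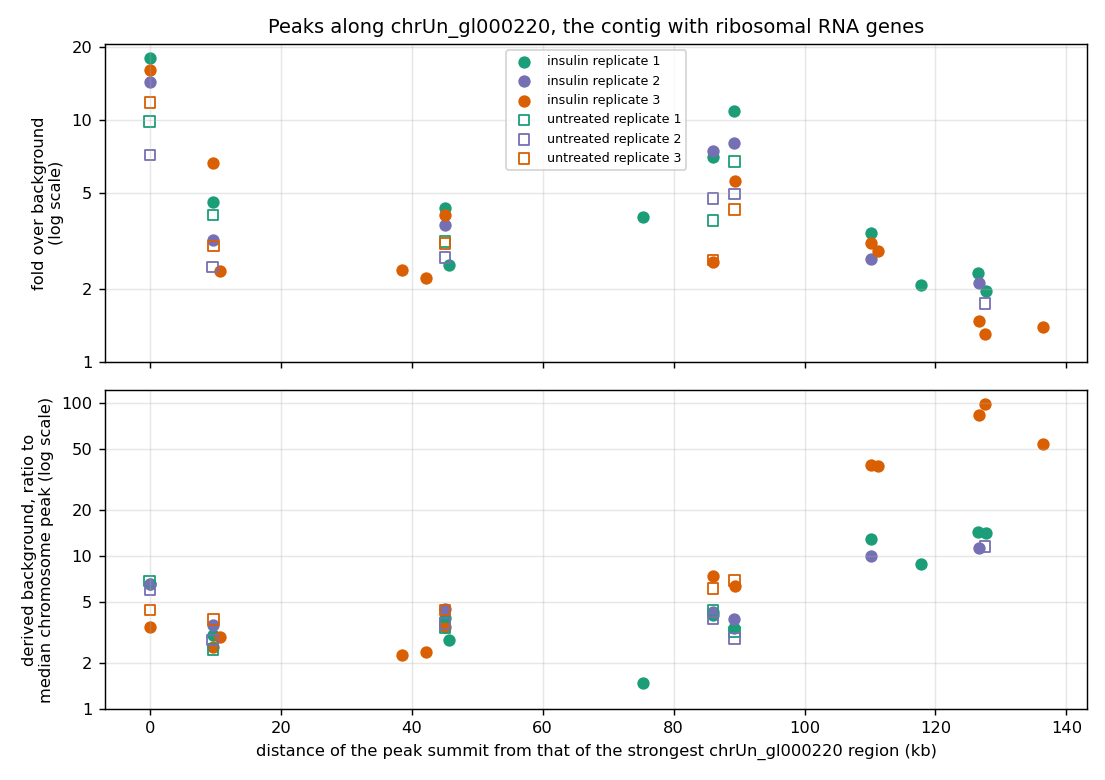
Fold (top, log scale) and derived background as a ratio to the median chromosome peak (bottom, log scale) of the 47 peaks on chrUn_gl000220, against the distance in kb of each summit from that of the contig's strongest region, with insulin as filled circles and untreated as open squares. In the group of points at the right end the folds stay at or below 3.42 and the background reaches 97.7 times the median in insulin replicate 3.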

How the data were processed

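FoxK1 chromatin immunoprecipitation libraries (3 insulin, 3 untreated) were analysed as deposited peak lists; the 6 input samples were not analysed here. The submitters' processing notes name hg19 as the build and fastp, Bowtie2, SAMtools and MACS2 as software. Versions, calling threshold, control sample and the handling of duplicate and multi-mapping reads, which bears on repeated sequence such as these contigs, are for these lists not given in the sources used here. Peaks were called per library by the authors, as the peak names in each deposited file show. The deposited fold is a linear ratio at the summit, the deposited −log10 p and −log10 q come from the peak caller, and the deposited score was not used in any result. Total reads are not given, so the depth is unknown and no interval could be set.

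Coordinates are 1-based. A percentile is the rank of −log10 q within a list. Overlapping peaks (at least 1 bp) of all lists were merged into regions, and a library with several peaks in a region was given its strongest. Fragments and background at a summit were solved from fold = (fragments + 1) / (background + 1) and a Poisson upper tail to 0.0005 of the −log10 p (relative above 10). This gave a solution for 100% of the peaks of each list; these values are descriptions of libraries, not of binding. Groups were compared by exact permutation over all 20 assignments of 3 against 3, and contig with chromosome peaks within lists by exact sign-flip tests, both two-sided. The solving of fragments and background and the merging of regions were tested on simulated data, and the exact tests on known cases. The simulated backgrounds covered a narrower range than the lists hold, and the other steps were not simulated. The regions named are every one on chrUn_gl000220, those called in 3 of 3 libraries of one treatment and 0 of 3 of the other, the 12 other contig regions in all 6 libraries with the highest mean percentile, and the contig peak with the highest fold in each list. The members, lists and tests were chosen with earlier results of these data known. Alternatives were each library left out, −log10 q of at least 5, equal list lengths (26082 peaks), no chrUn_gl000220, no haplotype contigs (0 peaks, so it cannot change a value), percentiles of −log10 p, regions from summits within 100 bp and the replicate block; leaving out both replicate 3 libraries was added after seeing the data. No genes were assigned to peaks. Python 3.11.15, numpy 2.4.6, pandas 2.3.3, scipy 1.17.1 and matplotlib 3.10.9 were used.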

Additional observations from a re-analysis of the deposited data

How the results depend on the processing

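Leaving out each library in turn gave contig peak differences (insulin minus untreated) of -6.5 to 46.5 peaks and -0.0627 to 0.158 percentage points, both negative only without insulin replicate 3, and 8 peaks and 0.0169 points with −log10 q of at least 5; the share was -0.0177 without both replicate 3 libraries. The difference in median percentile between treatments ran from -4.50 to 14.2, with -2.72, -2.91 and -4.50 without insulin replicate 1, insulin replicate 2 and untreated replicate 3. For chrUn_gl000220 it was 3.67 to 6.67 peaks and 1316.5 to 3884 bp, always positive. Against chromosome peaks, the fold difference ran from -0.944 to -0.683 and the log2 background ratio from 0.99 to 1.15. Since 5 lists cannot give an exact sign-flip p below 0.0625, an unadjusted p above 0.05 there follows from the smaller number. The same holds without both replicate 3 libraries (fold -0.566, log2 background 1.17, exact sign-flip p = 0.125 each).

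Only peaks in regions called in all 6 libraries, and only those in regions that a replicate 1 or 2 library has, were settings chosen after seeing the data, as was leaving out both replicate 3 libraries. In regions of all 6 libraries the fold difference was -0.855 (exact sign-flip p = 0.0625, insulin replicate 3 being higher on contigs), the percentile difference reversed to 10.6 (exact sign-flip p = 0.0312) and the width difference to 297 bp (exact sign-flip p = 0.0312). In regions that a replicate 1 or 2 library has, the percentile difference was 4.36 and the width difference 100.2 bp. The percentile difference was 3.49 without both replicate 3 libraries, and the width difference was 156 bp with −log10 q of at least 5. The cause was not tested.

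The percentile difference between chrUn_gl000220 and the other contigs lay between 23.4 and 31.9 when libraries were left out in turn, and was 21.5 without both replicate 3 libraries, 16.1 with −log10 q of at least 5 and 11.8 with equal lengths, positive in each. The fold difference was -1.31 with −log10 q of at least 5 (exact sign-flip p = 0.0312) and -1.42 with equal lengths. Insulin-only contig regions numbered 3 to 4 with each library left out, 1 without chrUn_gl000220 and 6 without both replicate 3 libraries; untreated-only ones numbered 0 to 3, and 3 without both. The number of contig regions shared by all libraries moved by less than 1.5 times in the 11 alternatives that could change it; leaving out haplotype contigs could not, since they hold 0 peaks.

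In the main tests the replicate numbers were treated as names only. Deviations from the group mean gave correlations of 0.101, 0.0606 and 0.266 for pairs 1, 2 and 3. The value was 0.122 for insulin replicate 2 with untreated replicate 1 and 0.0142 for insulin replicate 1 with untreated replicate 2. Insulin replicate 3 gave -0.210 and -0.0698 with untreated replicates 1 and 2. Untreated replicate 3 gave -0.112 and -0.173 with insulin replicates 1 and 2. The pair of replicate 3 libraries thus had the highest correlation. Under a replicate block the contig peak difference was 28.3 (exact sign-flip p = 0.5) and the share 0.0846 (p = 1, exact). The chrUn_gl000220 differences were 5 peaks and 2996 bp (exact sign-flip p = 0.25 each, the smallest possible). The percentile difference was 2.87 (exact sign-flip p = 0.5). Neither the block nor the permutation of 3 against 3 can give a p below 0.05, so the block could not change a call.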
